A study of Mus musculus with 8 samples.

Results

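The receptors, ligands and feedback inhibitors of fibroblast growth factor (FGF) signalling were followed in RNA from costal chondrocytes, the cartilage cells of the rib, of wild-type and *Mir140*-null mice. They were chosen by name: the receptors *Fgfr1*, *Fgfr2*, *Fgfr3* and *Fgfrl1*, the ligands *Fgf2* and *Fgf18*, and the inhibitors *Spry1*, *Spry2*, *Spry4* and *Dusp6*. These are 10 of the 52325 genes listed in each of the 8 libraries, and each was found once by its symbol. All 10 passed the filter of at least 0.5 TPM (a level scaled by transcript length and library total, so that genes can be compared) in at least 4 libraries, as did 17177 genes in all.

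The study compared 4 wild-type with 4 *Mir140*-null libraries, in order to find the genes that change when both strands of miR-140 are lost. The mice of both genotypes were 7 d old and on the C57BL/6J strain background, and no treatment is labelled. The null allele was made with CRISPR/Cas9 in zygotes of mixed C57BL/6 and CBA/ca origin, which were backcrossed onto C57BL/6J, and heterozygotes were intercrossed to give separate wild-type and null lines. The deletion is present in every cell, and any other difference between the lines and the deletion itself cannot be told apart. Cells were freed from the rib by collagenase digestion. Whether each library came from 1 mouse or from pooled mice is not given in the sources used here, so the p-values measure the spread between these libraries.

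FGF ligands bind receptor tyrosine kinases at the cell surface together with heparan sulfate. The activated receptor recruits adaptor proteins and turns on the relay from RAS to ERK, and the same relay raises the transcription of Sprouty genes and of *Dusp6*, whose products dampen it again. In cartilage, FGFR3 is known as a brake on chondrocyte proliferation and bone elongation, and activating mutations of it cause achondroplasia. FGF18 is a ligand of growth cartilage and FGF2 is stored in the cartilage matrix.

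Some properties of the libraries bear on every value. *Mir140* itself was listed at 0 TPM in 7 libraries. The library labelled *Mir140*-null replicate 2 listed 8.86 TPM. A poly(A) library does not capture the mature miRNA, so this gene did not check the labels. Within the TPM data the groups rest on the labels. The paper states that the genotype of the mice was checked by PCR on ear notches and by Sanger sequencing. It also measured the mature miRNA by qRT-PCR in rib chondrocyte RNA, and several of those samples were sequenced. Which library belongs to which of these checks is not given in the sources used here. Chondrocyte markers were abundant in all libraries, with a summed TPM of 58543 to 73273 in wild-type and 43335 to 59039 in *Mir140*-null libraries over 10 markers, of which 1 rose and 3 fell. The 7 fibroblast markers summed to 3092 to 5915 TPM in the wild-type group. *Mir140*-null replicates 3 and 4 held 5280 and 3843 TPM, but replicates 1 and 2 held 587 and 741 TPM. In 6 of the 7 markers these 2 libraries were the lowest of all, and the exception was *Pdgfra*, which rose from 16.5 ± 3.38 to 34.2 ± 2.06 TPM (SD, n = 4) and was at 34.5 and 36.5 TPM in replicates 1 and 2 (limma, Benjamini-Hochberg adjusted p = 0.00846), the only one of the 7 called. Other lists were lowest in the same pair: osteoblast markers summed to 14.9 and 14.5 TPM (24.0 to 31.2 in the other 6 libraries), blood markers to 432 and 256 TPM (646 to 1854) and leukocyte markers to 17.3 and 16.8 TPM (21.8 to 39.6). Skeletal muscle markers summed to 61.2 to 96.4 TPM in wild-type and 33.6 to 57.3 TPM in all *Mir140*-null libraries. Most of this sum was *Tnnt3*, which itself overlapped between genotypes (40.4 to 73.1 against 28.4 to 54.4 TPM). *Myh3*, *Myh8*, *Ckm* and *Myog* were at most 0.312 TPM in any library, and no muscle marker was called. The part of these cell types in the results was not tested beyond the fits that leave out the pair or take the fibroblast sum as a covariate. *Col1a1*, the collagen of bone and fibrous tissue, was at 47.8 and 50.1 TPM in those 2 libraries and at 793 to 1544 TPM in the other 6, and no defining fibroblast marker was at 0 in every library. Mitochondrially encoded genes took 4.06% to 6.98% of TPM in wild-type and 8.41% to 10.1% in *Mir140*-null libraries. After rescaling to nuclear protein-coding genes, which leaves these out, 6 of the 10 members were called higher and 0 lower. Over all nuclear protein-coding genes 2028 were then called higher and 880 lower, against 1661 and 695 of the protein-coding genes in the main fit. The filter and the adjustment were redone over the rescaled genes only, so these counts differ by more than the rescaling. The number of genes tested after rescaling is not given here, so the 6 of 10 cannot be set against a share. In bulk RNA, fewer cells of a type and less RNA per cell cannot be told apart. Each result on a named FGF gene is therefore also given without *Mir140*-null replicates 1 and 2 where that ends the call or turns the direction.

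The sequences that connect the deleted miRNA with these genes are short. The 3p strand of miR-140 is cut at alternative 5′ ends, and the isomiRs miR-140-3p.2 and miR-140-3p.1 differ by 1 base at the 5′ end, which shifts the seed, bases 2 to 8, that pairs with target mRNAs. The mature sequence of RefSeq (GRCm38.p6) lies on chromosome 8, bases 107551288 to 107551308 of the plus strand, and is printed with the seed in capitals. It is followed by the same sequence without its first base.
miR-140-3p.2: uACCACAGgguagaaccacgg
miR-140-3p.1: aCCACAGGguagaaccacgg
The mRNA letters that pair with these seeds are CTGTGGT and CCTGTGG, which can overlap in a transcript, as 2 of the 3 matches in *Spry4* do. They were searched on the transcript strand only, in the longest 3′UTR of each gene in GENCODE M21. Sites of miR-140-5p, which the deletion also removes, were not searched. Among the members, *Fgfr1* held 1 CTGTGGT and *Spry4* held 2 CTGTGGT and 1 CCTGTGG, and the other 8 held neither. For *Fgfr1*, the match starts at base 1573 of a 3′UTR of 1797 bases (mm10 chr8:25575486-25575508, plus strand), shown with 8 bases on either side and the match in capitals.
Fgfr1: tttggcagCTGTGGTttgggtca
Of the 12988 tested genes with a 3′UTR, 19.0% held CTGTGGT, beside 2 of the 10 members, and 20.2% held CCTGTGG, beside 1 of the 10. On the human target predictions used by the study, *Spry1* and *Spry4* are listed for miR-140-5p, *Spry4* also for miR-140-3p.2, and none of the 10 for miR-140-3p.1. These lists hold 2.08%, 2.24% and 3.04% of all tested genes. A match or a listing describes letters or a prediction and says nothing about binding in these cells.

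In wild-type chondrocytes the receptors were among the more abundant of the 13118 protein-coding genes tested. *Fgfr1* averaged 254 ± 51.6 TPM (SD, n = 4), above 97.4% of them. It was followed by *Spry2* at 109 ± 14.1 TPM, *Fgfrl1* at 90.2 ± 9.90, *Fgfr2* at 87.5 ± 7.33, *Fgfr3* at 80.0 ± 15.0 and *Fgf2* at 45.4 ± 15.6. The order ended with *Dusp6* at 19.3 ± 3.37 TPM, *Spry4* at 8.96 ± 0.501, *Fgf18* at 8.71 ± 2.54 and *Spry1* at 4.04 ± 1.28, the last above 34.4% of those genes. The steps from *Fgfr1* to *Spry2*, from *Fgf2* to *Dusp6* and from *Dusp6* to *Spry4* separated all 4 libraries of the one gene from those of the other, and the other neighbours overlapped.

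The receptors *Fgfr1* and *Fgfr2*, the ligand *Fgf18* and the inhibitor *Spry2* were more abundant in *Mir140*-null chondrocytes. By limma on log2(TPM + 1) with Benjamini-Hochberg adjustment over all 17177 genes, 4 of the 10 rose (*Fgfr1*, *Fgfr2*, *Fgf18* and *Spry2*) and 0 fell. Of all tested genes 10.5% rose and 6.40% fell, and of the protein-coding ones 12.7% and 5.30%. At an unadjusted p under 0.05, 7 of the 10 were higher and 0 were lower. The share of all tested genes at that level was not counted, so this count cannot be set against a background. In 7 of the 10 every *Mir140*-null library lay above every wild-type library, which held for 15.7% of all tested genes and 19.3% of the protein-coding ones, and in 0 of the 10 below, which held for 10.2% and 9.14%. Over the 10 genes the median log2 fold change was 0.58, against -0.01 over all tested genes and 0.04 over the protein-coding ones.

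**Figure D1:**
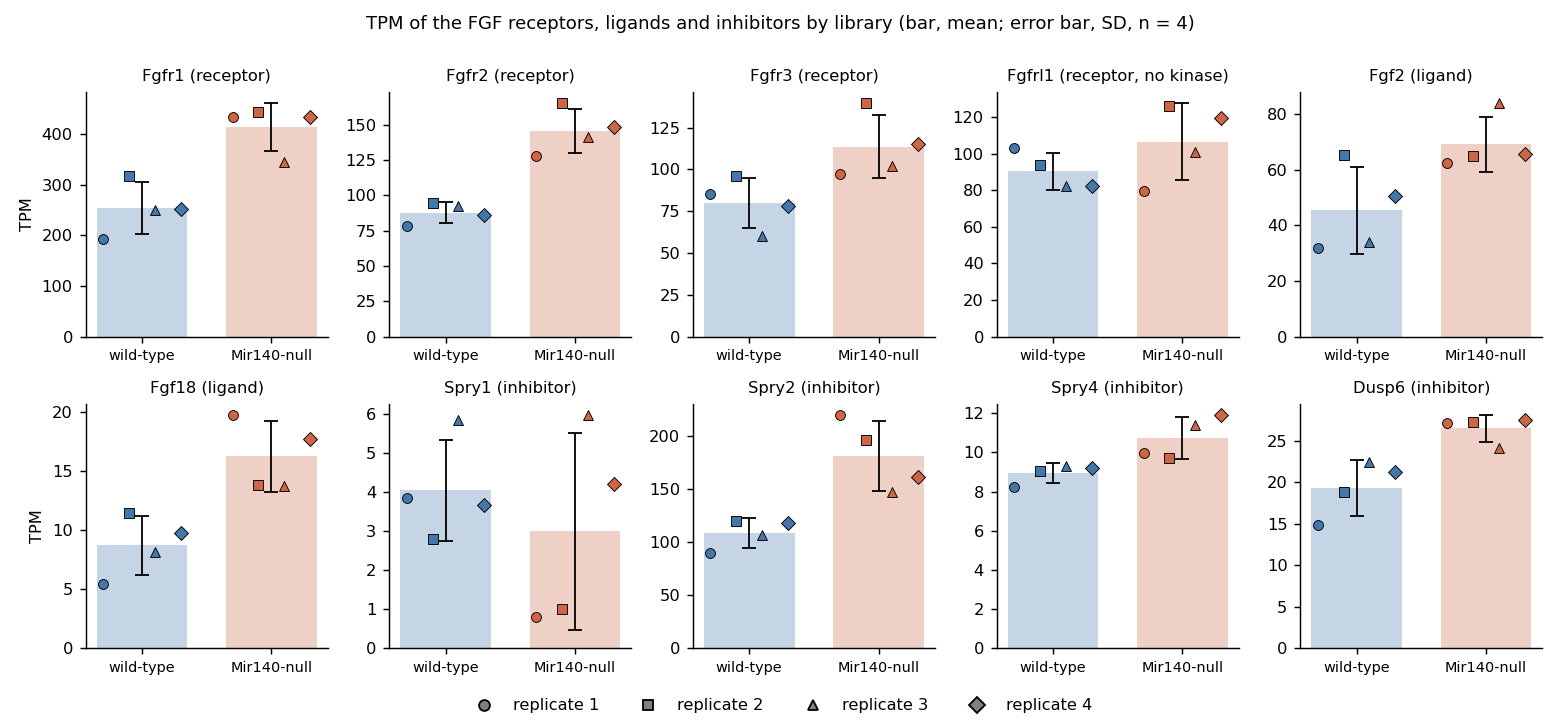
TPM of each of the 10 genes (y axis, linear from 0) in wild-type (blue) and *Mir140*-null (orange) libraries. Symbols are the replicates, bars the mean and error bars the SD over 4 libraries. The *Mir140*-null points lie above all wild-type points in 7 panels, and *Spry1* in replicates 1 and 2 lies at 0.812 and 1.01 TPM, under every other library.

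*Fgfr1*, the receptor with the highest level here, was measured at 192, 318, 251 and 253 TPM in wild-type replicates 1 to 4 and at 434, 444, 344 and 434 TPM in the 4 *Mir140*-null replicates. The groups did not overlap, and the lowest *Mir140*-null value came from replicate 3. The mean rose 1.63-fold, from 254 ± 51.6 to 414 ± 46.6 TPM (SD, n = 4). On the log2(TPM + 1) scale it rose by 0.72 with an SE of 0.16 (limma, Benjamini-Hochberg adjusted p = 0.0235). *Fgfr1* lies on chromosome 8 (mm10, 25513654 to 25575718, plus strand) and shares 164 exonic bases with Gm16159 on the other strand, which was at 2.61 to 18.5 TPM (limma, adjusted p = 0.238). The call was lost, with log2 fold changes of 0.68 to 0.73, without wild-type replicate 3 (limma, adjusted p = 0.0597) or 4 (0.0593) or *Mir140*-null replicate 1 (0.0557) or 2 (0.0641). Without *Mir140*-null replicates 1 and 2 together it was 0.63 (limma, adjusted p = 0.142).

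*Fgfr2*, which in the skeleton is known for its role in bone-forming cells, was the only member called in all 19 alternative analyses. Its TPM was 77.9, 94.2, 92.2 and 85.7 in wild-type and 128, 165, 141 and 148 in *Mir140*-null libraries. Every *Mir140*-null library exceeded the highest wild-type library by more than the whole wild-type range. The mean rose 1.66-fold, from 87.5 ± 7.33 to 145 ± 15.2 TPM (SD, n = 4). This was a log2 fold change of 0.72 with an SE of 0.11 (limma, Benjamini-Hochberg adjusted p = 0.00837). Its log2 fold changes in those analyses were 0.56 to 0.78, among them that without *Mir140*-null replicates 1 and 2 (0.72, limma adjusted p = 0.0377). Its RefSeq span is chromosome 7, 130162451 to 130266808 (GRCm38.p6, minus strand). GENCODE M21 extends it to base 133123350 through 1 of its 27 transcripts, which shares 314 exonic bases with *Ctbp2*, so reads there could be given to either gene. *Ctbp2* itself had a log2 fold change of 0.03 (limma, adjusted p = 0.914).

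*Fgfr3*, the receptor that restrains growth of cartilage, was measured at 85.5, 95.9, 60.4 and 78.2 TPM in wild-type and at 97.5, 139.5, 102 and 115 TPM in *Mir140*-null libraries. The groups did not overlap, but wild-type replicate 2 came close to *Mir140*-null replicate 1. The means were 80.0 ± 15.0 and 114 ± 18.8 TPM (SD, n = 4). The log2 fold change of 0.51 (SE 0.17, 95% interval 0.12 to 0.90) missed the threshold after adjustment (limma, Benjamini-Hochberg adjusted p = 0.0737). *Fgfr3* lies on chromosome 5 (mm10, 33721674 to 33737068, plus strand) and shares 998 exonic bases with *G630022F23Rik* on the other strand, which was at 0.243 to 0.568 TPM in all libraries. After rescaling to nuclear protein-coding genes only, *Fgfr3* was called at a log2 fold change of 0.53.

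*Fgfrl1*, a receptor without a kinase domain that binds ligand, did not separate the genotypes. It was at 103, 93.9, 82.4 and 82.0 TPM in wild-type and at 79.5, 126, 101 and 119.6 TPM in *Mir140*-null libraries. The lowest value of all came from *Mir140*-null replicate 1 and the highest from replicate 2. Its log2 fold change was 0.22 with a 95% interval of -0.14 to 0.59 (limma, Benjamini-Hochberg adjusted p = 0.357). It lies on chromosome 5 (mm10, 108692382 to 108706924, plus strand).

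Because a ratio within a library does not depend on the scaling between libraries, the make-up of the receptor RNA was also described, with no test. The 5 receptor genes, with *Fgfr4*, summed to 466, 606, 489.6 and 503 TPM in wild-type and to 744, 880.3, 694 and 823 TPM in *Mir140*-null libraries. *Fgfr1* held 48.8% ± 5.16 of this sum in wild-type and 52.8% ± 3.95 in *Mir140*-null libraries (SD, n = 4). *Fgfr2* held 17.0% ± 1.36 and 18.5% ± 1.32, and *Fgfr3* 15.5% ± 2.46 and 14.4% ± 1.16, and all 3 shares overlapped between genotypes. The share of *Fgfrl1* was 15.5% to 22.0% in wild-type and 10.7% to 14.6% in *Mir140*-null libraries and did not overlap. The ratio of *Fgfr1* to *Fgfr2* was 2.88 ± 0.388 and 2.87 ± 0.403, and that of *Fgfr1* to *Fgfr3* was 3.24 ± 0.784 and 3.69 ± 0.565. Both ratios overlapped between genotypes. The ratio of the kinase-less *Fgfrl1* to *Fgfr1* was 0.295 to 0.533 in wild-type and 0.183 to 0.294 in *Mir140*-null libraries, so the groups all but touched.

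**Figure D2:**
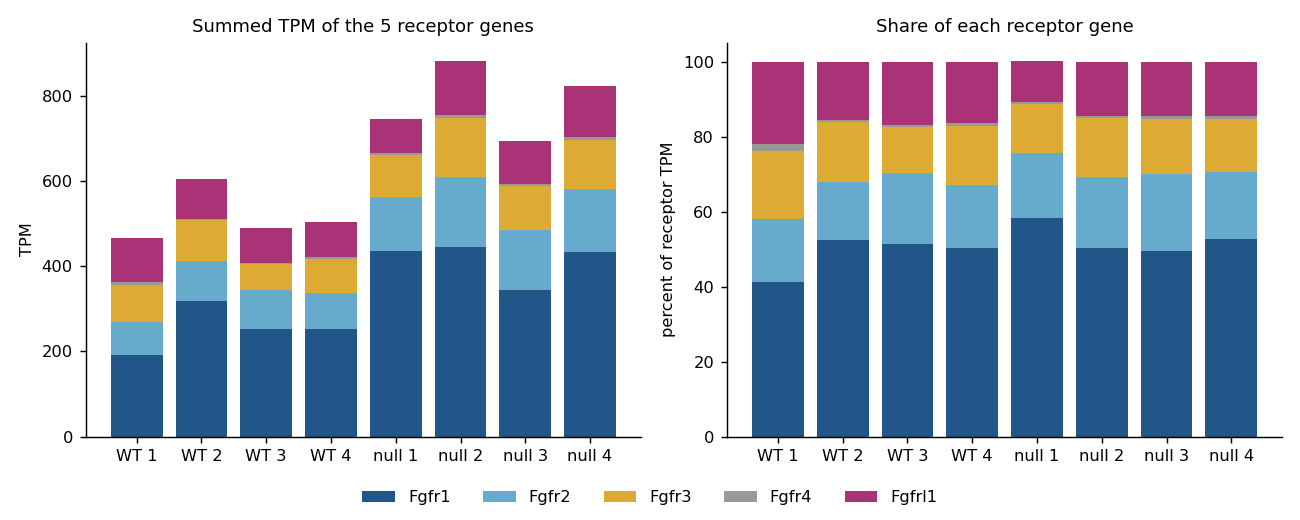
Left, summed TPM of *Fgfr1*, *Fgfr2*, *Fgfr3*, *Fgfr4* and *Fgfrl1* in each library (stacked bars, y axis from 0). Right, the share of each gene in that sum, in percent. The 4 *Mir140*-null sums are at 694 to 880.3 TPM and the 4 wild-type sums at 466 to 606 TPM, and the *Fgfrl1* share is smaller in each *Mir140*-null library.

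*Fgf18*, a ligand that acts on growth cartilage largely through FGFR3, was low in wild-type cells, at 5.48, 11.4, 8.14 and 9.77 TPM. It was at 19.7, 13.8, 13.7 and 17.7 TPM in the *Mir140*-null libraries. All of these were above the highest wild-type value. The mean rose 1.86-fold, from 8.71 ± 2.54 to 16.2 ± 2.97 TPM (SD, n = 4), the largest ratio among the 10 genes. In log2 fold change this was 0.85 with an SE of 0.22 (limma, Benjamini-Hochberg adjusted p = 0.0358). It lies on chromosome 11 (mm10, 33117430 to 33147400, minus strand). The call was lost, at log2 fold changes of 0.67 to 0.92, when any of wild-type replicates 1, 3 and 4 or *Mir140*-null replicates 1, 2 and 4 was left out (limma, adjusted p = 0.0588 to 0.0850), and without *Mir140*-null replicates 1 and 2 together (0.81, limma adjusted p = 0.150).

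*Fgf2*, the matrix-bound ligand, spread widely among wild-type libraries, at 32.0, 65.2, 34.0 and 50.6 TPM. The *Mir140*-null libraries held 62.3, 64.9, 83.9 and 65.5 TPM. Wild-type replicate 2 lay within the *Mir140*-null range, so the groups overlapped. The log2 fold change was 0.65 with a 95% interval of 0.11 to 1.18 (limma, Benjamini-Hochberg adjusted p = 0.0901), and it passed the threshold only when wild-type replicate 2 was left out (0.84, limma adjusted p = 0.0377). *Fgf2* lies on chromosome 3 (mm10, 37348346 to 37410108, plus strand), and 640 of its exonic bases are shared with *Nudt6* on the other strand. *Nudt6* fell by 0.52 on the log2 scale, from 1.96 ± 0.335 to 1.06 ± 0.213 TPM (limma, Benjamini-Hochberg adjusted p = 0.0349), a call held in 7 of 18 alternatives and lost without *Mir140*-null replicates 1 and 2 (-0.50, limma adjusted p = 0.132). The library kit marks strand, but whether the quantification used it is not given in the sources used here. The ratio of *Fgf18* to *Fgf2* was 0.172 to 0.240 in wild-type and 0.163 to 0.316 in *Mir140*-null libraries.

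*Spry2* was by far the most abundant of the 3 Sprouty genes measured, which encode inhibitors of the step from receptor to RAS. Wild-type replicates held 89.5, 120.3, 107 and 118 TPM and *Mir140*-null replicates 219.6, 196, 147 and 161 TPM. The groups did not overlap, and *Mir140*-null replicates 1 and 2 were the highest. Its mean rose 1.66-fold, from 109 ± 14.1 to 181 ± 33.3 TPM (SD, n = 4). *Spry2* rose by 0.72 on the log2(TPM + 1) scale, with an SE of 0.16 (limma, Benjamini-Hochberg adjusted p = 0.0214). *Spry2* lies on chromosome 14 (mm10, 105891947 to 105896819, minus strand). The call was lost without wild-type replicate 3 (0.72, limma adjusted p = 0.0576), without *Mir140*-null replicate 2 (0.68, limma adjusted p = 0.0606) and without *Mir140*-null replicates 1 and 2 together (0.50, limma adjusted p = 0.108). With the fibroblast marker sum as a covariate it was 0.49 (limma, adjusted p = 0.0427).

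*Spry1*, another member of that family, split the *Mir140*-null libraries. It was at 3.85, 2.80, 5.83 and 3.67 TPM in wild-type and 0.812, 1.01, 5.96 and 4.20 TPM in *Mir140*-null libraries. Replicates 1 and 2 of the *Mir140*-null group were under all wild-type libraries, and replicates 3 and 4 lay within or above the wild-type range. The same 2 libraries had the low fibroblast marker sums of 587 and 741 TPM, and the lowest osteoblast, blood and leukocyte sums, the last nearly all *Cd68*. The log2 fold change of -0.54 had a 95% interval of -1.58 to 0.50 (limma, Benjamini-Hochberg adjusted p = 0.434), and the direction turned to 0.29 without these 2 libraries and to 0.24 with the fibroblast marker sum as a covariate (limma, adjusted p = 0.550 and 0.387). The part of other cell types in this value was not tested further. *Spry1* lies on chromosome 3 (mm10, 37639947 to 37644598, plus strand).

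*Spry4*, the third Sprouty gene, varied little between wild-type libraries. It was at 8.23, 9.07, 9.33 and 9.22 TPM in wild-type and at 9.98, 9.72, 11.4 and 11.9 TPM in *Mir140*-null libraries. The groups did not overlap, although wild-type replicate 3 came close to *Mir140*-null replicate 2. Its log2 fold change was 0.23 with a 95% interval of -0.03 to 0.49 (limma, Benjamini-Hochberg adjusted p = 0.185). It lies on chromosome 18, and it is the member with the most matches for the 3p seeds in its 3′UTR. It is also the only one on a pair of prediction lists. Whether these bear on its level was not tested. The ratio of *Spry2* to *Spry4* was 10.9 to 13.3 in wild-type libraries. In the *Mir140*-null group it was 22.0 and 20.2 in replicates 1 and 2, and 12.9 and 13.5 in replicates 3 and 4.

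**Figure D3:**
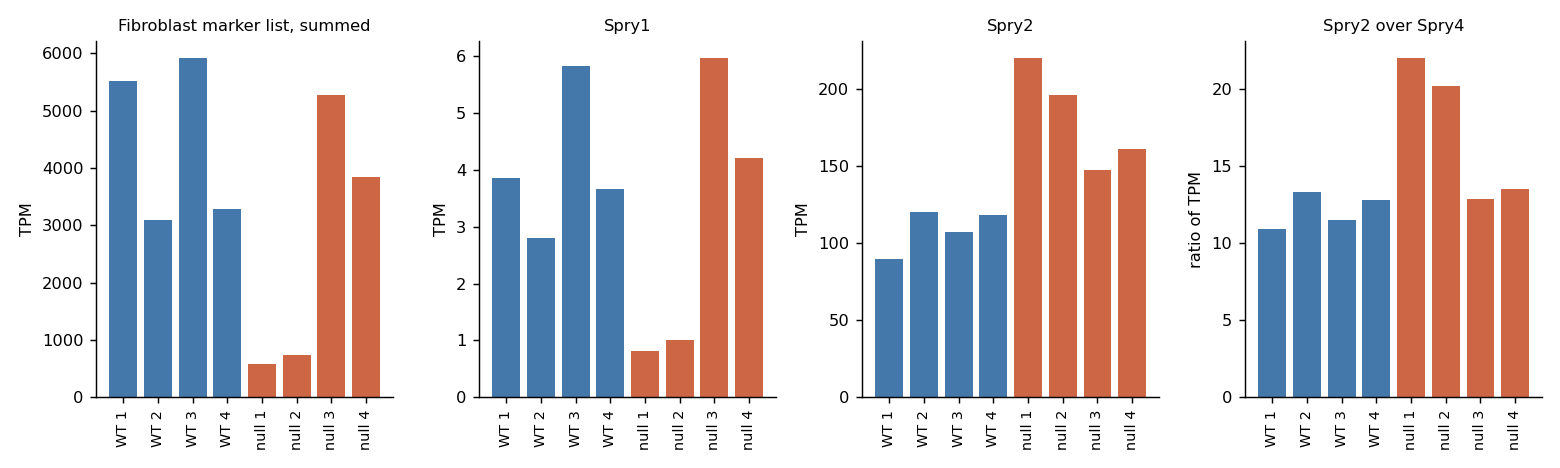
Bars per library (wild-type blue, *Mir140*-null orange, y axes from 0) of the summed TPM of the 7 fibroblast markers, the TPM of *Spry1*, the TPM of *Spry2* and the ratio of *Spry2* to *Spry4*. In *Mir140*-null replicates 1 and 2 the marker sum and *Spry1* are the lowest of the 8 libraries, and *Spry2* and its ratio to *Spry4* are the highest.

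*Dusp6*, the phosphatase that switches off ERK in the cytoplasm, was at 14.8, 18.8, 22.4 and 21.2 TPM in wild-type libraries. It was at 27.1, 27.2, 24.1 and 27.5 TPM in *Mir140*-null libraries. The groups did not overlap and the *Mir140*-null libraries were close together, at 26.5 ± 1.63 TPM against 19.3 ± 3.37 (SD, n = 4). The log2 fold change of 0.45 (SE 0.14, 95% interval 0.13 to 0.77) missed the threshold (limma, Benjamini-Hochberg adjusted p = 0.0612). *Dusp6* lies on chromosome 10 (mm10, 99263231 to 99267489, plus strand). The ratios of the inhibitors to the most abundant receptor overlapped between genotypes. The ratio of *Spry2* to *Fgfr1* was 0.434 ± 0.0423 in wild-type and 0.436 ± 0.0556 in *Mir140*-null libraries, and that of *Dusp6* to *Fgfr1* was 0.0591 to 0.0893 and 0.0614 to 0.0698.

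**Figure D4:**
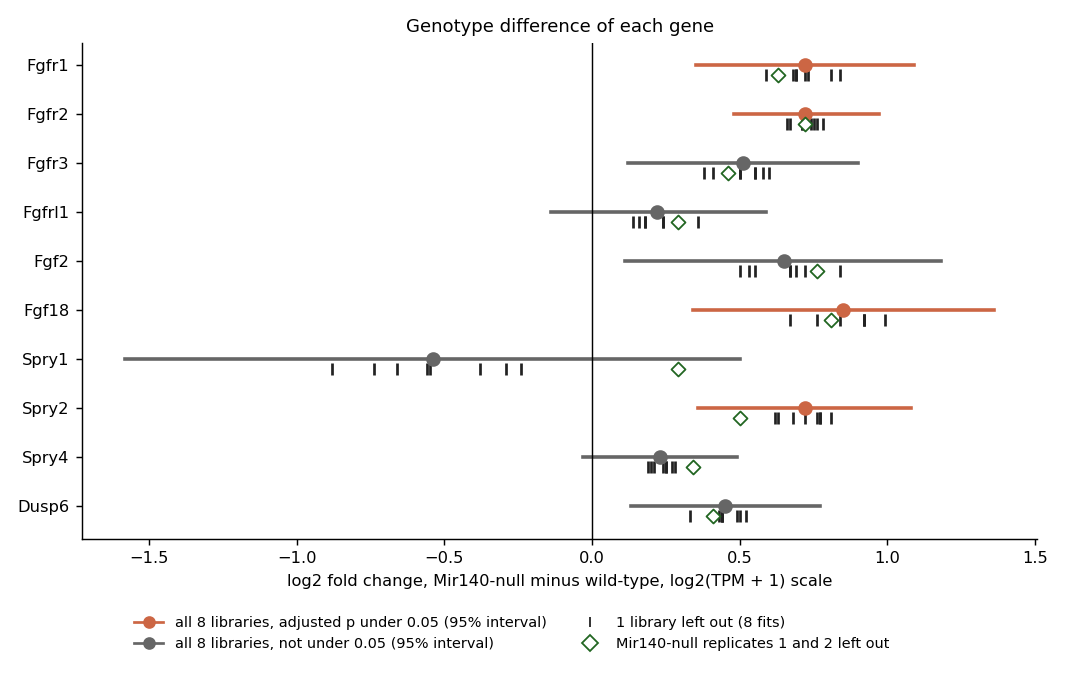
Log2 fold change, *Mir140*-null minus wild-type, of each gene on the log2(TPM + 1) scale (x axis), with its 95% interval from limma. Orange marks the 4 genes called, ticks the fits without 1 library, and diamonds the fit without *Mir140*-null replicates 1 and 2, where all 10 genes lie above 0, between 0.29 and 0.81. In that fit only *Fgfr2* was called, and the median over all tested genes was 0.07.

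How alike the members were from library to library was described against *Fgfr3*. Over the 8 libraries, Pearson's r of log2(TPM + 1) with *Fgfr3* was 0.80 for *Fgfr2*, 0.78 for *Fgfrl1* and 0.74 for *Fgfr1*. The other members had values of 0.71 for *Fgf2*, 0.69 for *Spry2*, 0.61 for *Fgf18*, 0.47 for *Dusp6*, 0.46 for *Spry4* and -0.54 for *Spry1*. These are descriptions over libraries that share 1 genotype contrast and 1 scaling. The genes most like *Fgfr3* among 13117 protein-coding genes were *Ddr1*, a collagen receptor, at 0.97, *H2afj*, a histone variant, at 0.97, *Tars2* at 0.94, *Bzw2* at 0.94 and *Ccnt2* at 0.93, and 22 genes reached 0.9.

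The rest of the pathway was read in the same fit, and 33 of its 41 tested genes were not called. A list of 62 further FGF pathway genes was fixed by role, of which 61 were matched and 41 passed the filter. Of these 41, 6 rose and 2 fell, with a median log2 fold change of 0.11 (limma, background 10.5% and 6.40% as above). Among the 20 other ligands only 4 passed the filter. *Fgf7*, a ligand of FGFR2 made by mesenchymal cells, rose from 1.16 ± 0.244 to 2.64 ± 0.561 TPM, a log2 fold change of 0.74 with an SE of 0.16 (limma, Benjamini-Hochberg adjusted p = 0.0196). *Fgf9*, a ligand of FGFR3, rose from 0.460 ± 0.115 to 1.13 ± 0.300 TPM, with a log2 fold change of 0.54 that the added 1 TPM makes smaller at so low a level (SE 0.13, limma adjusted p = 0.0305). *Fgf9* reached 0.5 TPM in 1 wild-type and 4 *Mir140*-null libraries, so it passed the filter through the group where it is higher. *Fgf21*, an endocrine ligand, fell from 10.7, 12.4, 11.0 and 12.6 TPM to 0.127, 1.38, 3.45 and 5.76 TPM. No library overlapped, and the log2 fold change of *Fgf21* was -2.08 with an SE of 0.49 (limma, adjusted p = 0.0278). *Klb*, the co-receptor FGF21 needs, did not pass the filter and had at most 0.0704 TPM. *Fgf7* lost its call without wild-type replicate 3 (0.76) or *Mir140*-null replicate 2 (0.73), *Fgf9* without any library but *Mir140*-null replicate 1 (0.48 to 0.59), and *Fgf21* without any wild-type library or *Mir140*-null replicate 2 (-2.12 to -1.97). Without *Mir140*-null replicates 1 and 2 together, *Fgf7* was at 0.68 (limma, adjusted p = 0.111) and *Fgf21* at -1.21 (0.0409). *Fgf1* was at 0.487 to 2.28 TPM in wild-type and 1.52 to 2.81 TPM in *Mir140*-null libraries (log2 fold change 0.23, limma adjusted p = 0.572), and *Fgfr4* at 4.98 ± 2.23 and 5.79 ± 0.758 TPM (0.24, limma adjusted p = 0.515).

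Inside the cell, the adaptors and the further inhibitors held the remaining calls. Of 9 adaptors and first enzymes 2 rose, *Gab1*, a docking protein downstream of the receptor, from 16.8 ± 2.80 to 27.2 ± 3.44 TPM (log2 fold change 0.67, SE 0.15, limma Benjamini-Hochberg adjusted p = 0.0226), and *Sos2*, an activator of RAS, from 5.22 ± 0.692 to 8.30 ± 1.24 TPM (0.58, SE 0.14, limma adjusted p = 0.0325). Of 11 further inhibitors 2 rose and 1 fell. *Spred1*, a relative of the Sproutys that restrains RAS, went from 27.5, 44.8, 33.6 and 41.1 TPM to 79.4, 70.6, 58.8 and 69.6 TPM, with a log2 fold change of 0.92 and an SE of 0.17 (limma, adjusted p = 0.0137). All *Mir140*-null libraries of *Spred1* stood above the wild-type ones. *Rasa1*, a RAS GTPase activating protein, rose from 14.8 ± 2.64 to 25.0 ± 1.82 TPM (0.73, SE 0.14, limma adjusted p = 0.0156), and *Dusp5*, an ERK phosphatase of the nucleus, fell from 48.0 ± 7.55 to 33.4 ± 4.11 TPM (-0.50, SE 0.15, limma adjusted p = 0.0487). *Spred1* and *Rasa1* kept their calls in each of the 8 analyses that left out 1 library, but not without *Mir140*-null replicates 1 and 2 together (0.81 and 0.74, limma adjusted p = 0.0917 and 0.0819). *Gab1* lost its call without wild-type replicate 1 or 3 or *Mir140*-null replicate 2 (0.60 each), *Sos2* without any library but wild-type replicate 2 and *Mir140*-null replicate 3 (0.50 to 0.64), and *Dusp5* without any library but wild-type replicate 1 (-0.56 to -0.42). Without *Mir140*-null replicates 1 and 2 together, *Gab1* (0.65), *Sos2* (0.56) and *Dusp5* (-0.36) were not called either (limma, adjusted p = 0.0927, 0.0959 and 0.244). None of the 10 genes of the RAS to ERK relay itself passed the threshold, and their median log2 fold change was 0.13.

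At the end of the relay stand ETS transcription factors, which ERK signalling is known to raise. None of the 3 ETS factors passed the test, and their median log2 fold change was -0.40. This is the value of *Etv1* (limma, Benjamini-Hochberg adjusted p = 0.169). *Etv1* was at 3.89, 3.28, 2.81 and 2.58 TPM in wild-type and 1.37, 1.99, 2.87 and 2.44 TPM in *Mir140*-null libraries. *Etv4* was at 6.36, 5.56, 7.78 and 7.79 TPM in wild-type and at 1.60, 1.22, 4.38 and 4.69 TPM in *Mir140*-null libraries, with no overlap (log2 fold change -1.10, SE 0.33, limma Benjamini-Hochberg adjusted p = 0.0537). *Etv4* was called without *Mir140*-null replicate 3 (-1.29) or 4 (-1.32) and under 4 other settings, but it was -0.50 without replicates 1 and 2 (limma, adjusted p = 0.144) and -0.58 with the fibroblast covariate (0.118). *Etv5* was at 24.8 to 28.6 TPM in wild-type libraries, and the *Mir140*-null libraries held 15.2, 22.5, 35.2 and 32.4 TPM (-0.11, limma adjusted p = 0.773), with the direction turned to 0.30 without replicates 1 and 2. All 3 factors were lower in *Mir140*-null replicates 1 and 2, where 6 of the 7 fibroblast markers were lowest as well, than in any other library. Their values, like that of *Sos2*, were chosen after they were seen.

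**Figure D5:**
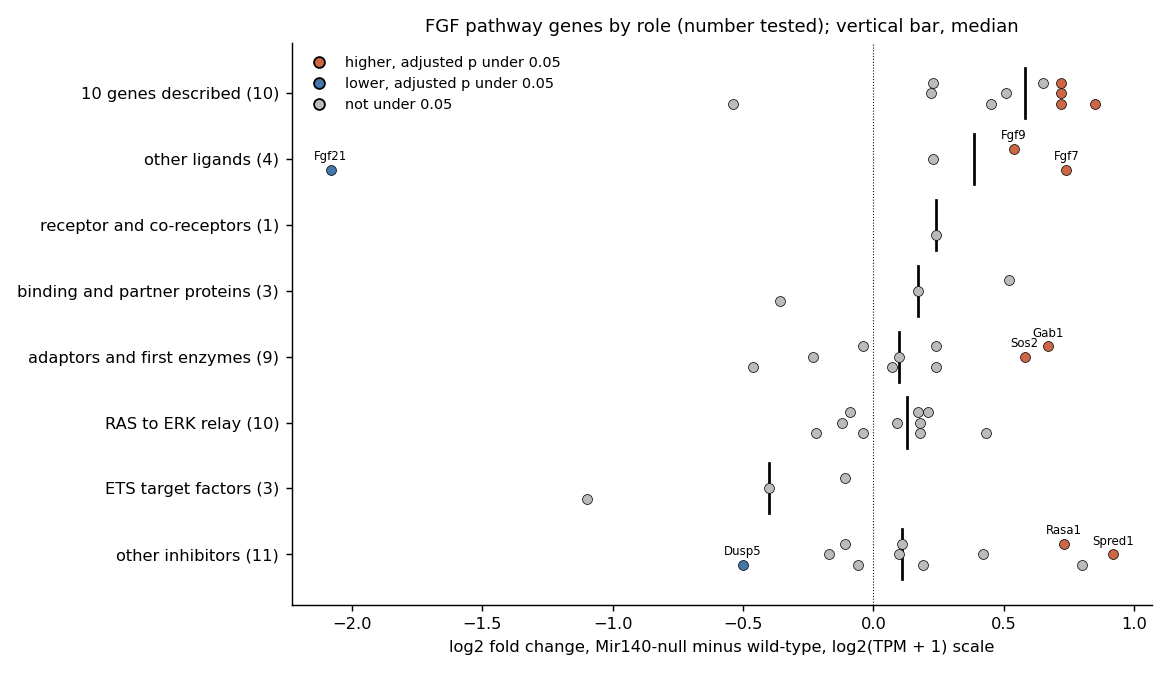
Log2 fold change (x axis, *Mir140*-null minus wild-type, log2(TPM + 1) scale) of the 10 genes and of the 41 tested pathway genes by role (y axis, number tested in brackets). Each point is a gene, the vertical bars are medians, and orange and blue mark genes called higher or lower by limma. The 10 genes have a median of 0.58. The 3 ETS factors, each lowest in *Mir140*-null replicates 1 and 2, have one of -0.40, and none of the 3 was called.

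Of the 41 tested pathway genes, 12 are on at least 1 of the 3 prediction lists of the study. Of the 12, 3 rose (*Fgf9*, on all 3 lists, *Spred1*, on the miR-140-5p list and on the miR-140-3p.1 list, and *Gab1*, on the miR-140-3p.2 list) and 0 fell. Without *Fgf9*, which passed the filter through the *Mir140*-null libraries, 2 of 11 rose. Of the 29 on no list 3 rose and 2 fell. Among all 1093 tested genes on any list 19.8% rose, against 10.5% of all tested genes and 12.7% of the protein-coding ones. None of the 4 members that rose is on a list, and the listed members *Spry1* and *Spry4* were not called.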

How the data were processed

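RNA of 4 wild-type and 4 *Mir140*-null libraries of mouse rib chondrocytes was compared. Per the study's methods, poly(A) RNA was sequenced in single-end reads with a stranded kit, checked with FastQC 0.11.7 (processing notes of the submitters) and mapped to the mm10 transcriptome with Salmon, whose version is not given in the sources used here. The authors deposited TPM per Ensembl gene and library, each summing to 1000000. The study gives a lower bound for the reads of each sample. TPM carry no read counts, so the exact depth of each library is unknown and no counting interval was given. The study's own fit with RUVSeq and DESeq2 was made on counts and was not used here.

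Identifiers listed repeatedly were counted once, and symbols and positions came from GENCODE M21. Genes that reached 0.5 TPM in 4 or more libraries were tested with limma 3.58.1 (R 4.3.3; log2(TPM + 1), mean-variance trend, two-sided), adjusted by Benjamini-Hochberg over all genes, and called at an adjusted p under 0.05. Fold changes on this scale understate those of low genes. The fit was tested on simulated data. Python 3.11.15, NumPy 2.4.6, pandas 2.3.3, SciPy 1.17.1 and matplotlib 3.10.9 did the rest. The members, the pathway and marker lists and the tests were chosen with earlier results of these data known. Named were all members, the called pathway genes with the 5 smallest p-values in each direction, every other ligand or receptor passing the filter, and the 5 genes most like *Fgfr3*. Alternatives were another pseudocount (0.1) and other filters, 3 other scalings, the replicate number as a block, 1 factor of unwanted variation, quality weights, each library left out, and, chosen after seeing the data, *Mir140*-null replicates 1 and 2 left out and the fibroblast marker sum as a covariate.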

Additional observations from a re-analysis of the deposited data

Results flagged for a closer look

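In each group of 4 libraries, the gap between the highest or lowest library and its nearest neighbour was compared with the whole range. Of 20 such sets (10 genes, 2 genotypes) 3 passed Dixon's 95% critical value, and chance passes about 1 in 20. All were in *Mir140*-null replicate 3: *Fgfr1* was the lowest there at 344 TPM (gap over range 0.903), *Fgf2* the highest at 83.9 TPM (0.849) and *Dusp6* the lowest at 24.1 TPM (0.89). Without this library the log2 fold change of *Fgfr1* was 0.81, that of *Fgf2* 0.55 and that of *Dusp6* 0.49, and no direction or call changed.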

How the results depend on the processing

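Under 19 alternatives no member called higher in the main analysis changed direction. The member count of 4 was 2 with no filter, 1 with the replicate block, 1 without *Mir140*-null replicates 1 and 2, 2 with the fibroblast marker sum as a covariate, and 1 to 5 when 1 library was left out (1 without wild-type replicate 3 or *Mir140*-null replicate 2). It was 6 on nuclear protein-coding TPM, where 2028 genes in all were higher and 880 lower. The same-numbered libraries showed little common deviation (r of -0.00911 to 0.0688 across genes, and in 0 of 4 wild-type libraries was the same number the closest). Such correlations cannot show whether the numbers stand for a shared origin, which the labels do not give. With the replicate block 671 genes were higher and 454 lower, against 1797 and 1100 in the main analysis.

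*Fgfr1* lost its call with no filter and with the block (0.72 each), without *Mir140*-null replicates 1 and 2 (0.63) and with the covariate (0.58), with a range of 0.59 to 0.84 when 1 library was left out. *Fgf18* lost it in the same 4 settings (0.85, 0.85, 0.81 and 0.72), with a range of 0.67 to 0.99. *Spry2* lost it with the block (0.72) and without *Mir140*-null replicates 1 and 2 (0.50), with a range of 0.62 to 0.81. *Fgf2* ranged from 0.50 to 0.84. *Fgfr3* was called on nuclear protein-coding TPM (0.53), and *Dusp6* there (0.47) and with a mean of at least 5 TPM (0.45). *Spry1* turned to 0.29 without *Mir140*-null replicates 1 and 2 and to 0.24 with the covariate, and *Fgf1* to -0.02 without wild-type replicate 1 (range to 0.36 with 1 library left out). *Etv5* turned to 0.05 with quality weights, 0.30 without *Mir140*-null replicates 1 and 2, 0.26 with the covariate, and ranged from -0.27 to 0.11 with 1 library left out, and *Dusp4* to 0.25, 0.93 and 0.73 in the same 3 settings, with a range of -0.48 to 0.42. Fewer libraries entered the fits that left some out, and for the other settings the cause was not tested.

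Of the pathway list, 6 were higher in the main analysis, 3 with no filter, 3 with the block, 1 without *Mir140*-null replicates 1 and 2, and 2 to 6 with 1 library left out. The 2 lower genes became 1 with a pseudocount of 0.1, 1 with no filter, 4 with quantile normalization, 0 with the block, 4 with the factor of unwanted variation, 1 without *Mir140*-null replicates 1 and 2, 0 with the covariate and 0 to 2 with 1 library left out. Over all genes, 977 were higher and 539 lower with no filter, 605 lower with a mean of at least 5 TPM, 2016 lower with the factor, 357 and 210 without *Mir140*-null replicates 1 and 2, 787 and 354 with the covariate, and 779 to 1553 and 419 to 1214 with 1 library left out. TPM give no read counts, so no difference could be called undetectable from counting error.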

Other observations

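A transcript inside *Fgf2*, chosen after its values were seen, had a larger difference than any of the 10 genes. *Gm42923* is a gene model marked to be experimentally checked of GENCODE M21 on chromosome 3 (mm10, 37392206 to 37395101), on the strand opposite to *Fgf2* and within an intron of it. It was at 50.5, 60.0, 63.8 and 60.4 TPM in wild-type and at 4.49, 6.96, 16.8 and 17.4 TPM in *Mir140*-null libraries, a log2 fold change of -2.44 (SE 0.38, limma, Benjamini-Hochberg adjusted p = 0.00898). It was called in all 18 alternatives that tested it, at -2.69 to -1.72. Its wild-type level was close to that of *Fgf2* itself, and it shares no exonic base with it.

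*Dusp4*, an ERK phosphatase outside the named genes, was at 7.57 to 14.7 TPM in wild-type libraries and 2.83, 7.09, 21.2 and 23.9 TPM in the *Mir140*-null ones. It was under all wild-type libraries in replicates 1 and 2 and above them in replicates 3 and 4 (log2 fold change -0.11, limma adjusted p = 0.914, and 0.93 without replicates 1 and 2). *Spred2*, the relative of *Spred1* that is listed for miR-140-3p.2, was at 8.93 ± 3.01 and 15.9 ± 3.25 TPM (0.80, SE 0.23, limma adjusted p = 0.0515), and it was called in 4 of 19 alternatives, among them without wild-type replicate 2 (0.98).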
